A study of Homo sapiens with 6 samples.

Results

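The EGR and AP-1 immediate early factors were taken by gene symbol from the deposited expression table: the zinc finger genes EGR1, EGR2 and EGR3, the JUN family (JUN, JUNB, JUND) and the FOS family (FOS, FOSB, FOSL1, FOSL2). All 10 symbols were found among the 17918 genes of the table. RNA sequencing was done on KMS11, a human multiple myeloma line, in 3 libraries from cells transfected with an shRNA against CRIP1 (labelled CRIP1 knockdown) and 3 libraries from cells with a scrambled shRNA (shScramble, labelled WT). CRIP1 encodes a small LIM domain protein, and the series asks about its role in myeloma through the proteasome and autophagy. Both groups were grown in RPMI with serum and carried the label of no treatment, and the labels do not say whether the knockdown cells were 1 clone or a pool. It is not stated whether the 3 libraries of a group were grown as separate cultures, and although the design text calls the replicates biological, the p-values cover the spread among these libraries alone, which may be technical.

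Immediate early genes are switched on within minutes of a growth factor, antigen or stress signal, from promoters already occupied by their activators and without new protein synthesis. EGR proteins bind GC-rich sites through zinc fingers and are held back by the NAB co-repressors. JUN and FOS proteins are basic leucine zipper (bZIP) factors that pair to form AP-1. JUN proteins can pair with each other or with FOS proteins, whereas FOS proteins need a JUN partner. FOS and EGR1 respond mainly through serum response factor (SRF) with its ELK partners and through CREB, while JUN responds mainly through its own AP-1-like site, bound by JUN and ATF2.

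Promoter stretches from RefSeq (GRCh38.p14) are shown because they carry the sites through which these signals are known to act. Windows of 250 bases before the transcript start were matched by symbol for 8 of the 10 members, and EGR3 and FOSL1 were not matched. The stretches below run 5′ to 3′ on the strand of the gene, stop where the GENCODE 29 gene model begins, and have each match in capitals. For JUN and FOSL2, whose windows lie inside that gene model, 30 bases around the match are shown.
EGR1 (chr5:138465229-138465478, plus strand): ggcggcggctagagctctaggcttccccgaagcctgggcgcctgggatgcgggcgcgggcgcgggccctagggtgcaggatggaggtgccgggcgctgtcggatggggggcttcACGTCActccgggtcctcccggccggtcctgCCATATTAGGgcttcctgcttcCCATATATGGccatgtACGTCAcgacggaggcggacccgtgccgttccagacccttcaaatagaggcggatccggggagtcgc
JUN (chr1:58784096-58784125, minus strand): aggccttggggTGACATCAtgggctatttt
JUNB (chr19:12791236-12791485, plus strand): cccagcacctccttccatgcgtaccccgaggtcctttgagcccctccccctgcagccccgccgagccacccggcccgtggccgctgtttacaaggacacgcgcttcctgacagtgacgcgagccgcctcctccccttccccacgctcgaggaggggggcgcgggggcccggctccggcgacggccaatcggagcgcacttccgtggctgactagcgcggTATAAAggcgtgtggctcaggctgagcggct
JUND (chr19:18281623-18281872, minus strand): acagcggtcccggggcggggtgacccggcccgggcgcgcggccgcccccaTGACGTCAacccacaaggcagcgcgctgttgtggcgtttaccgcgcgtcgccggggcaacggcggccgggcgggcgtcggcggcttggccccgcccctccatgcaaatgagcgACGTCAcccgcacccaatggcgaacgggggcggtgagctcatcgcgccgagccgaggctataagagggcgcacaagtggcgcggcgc
FOS (chr14:75278578-75278773, plus strand): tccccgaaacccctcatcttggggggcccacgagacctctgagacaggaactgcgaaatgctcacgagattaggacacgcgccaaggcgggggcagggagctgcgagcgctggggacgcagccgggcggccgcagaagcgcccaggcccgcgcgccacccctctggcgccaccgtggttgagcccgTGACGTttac
FOSB (chr19:45467746-45467994, plus strand): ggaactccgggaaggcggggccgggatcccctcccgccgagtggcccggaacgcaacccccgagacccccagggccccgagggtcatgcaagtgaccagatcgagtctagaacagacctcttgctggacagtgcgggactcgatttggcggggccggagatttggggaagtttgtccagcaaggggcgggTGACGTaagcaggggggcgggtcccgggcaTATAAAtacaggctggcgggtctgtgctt
FOSL2 (chr2:28392780-28392809, plus strand): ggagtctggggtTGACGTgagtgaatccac

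Both strands were searched for the CArG box (the site of SRF), the CREB site (CRE) TGACGTCA and its core TGACGT, the AP-1 site TGACTCA, the JUN-type site TGACATCA, the EGR sites GCGTGGGCG and GCGGGGGCG, and the TATA box TATAAA. The core is contained in the full CREB site. EGR1 held 2 CArG boxes, CCATATTAGG and CCATATATGG, starting 105 and 83 bases before the start, and cores on the other strand starting 136 and 67 bases before it. CArG boxes were found in 1.16% of all 35114 windows of this length. Of the 3 windows of EGR2, 1 held a CArG box and a core. JUN held the JUN-type site, starting 67 bases before the start, a match found in 2.38% of all windows. FOS, FOSB and FOSL2 each held a core, starting 64, 60 and 66 bases before their starts, against 7.1% of all windows. JUND held the full CREB site, which 1.65% of windows hold, and another core nearer its start. JUNB, FOS and FOSB held TATA boxes, found in 10.7% of windows. Matches of TGACTCA (4.2% of all windows) or of the EGR sites (5.37%) were found in 0 of the members' windows. A match describes letters only, and the serum response element of FOS is known to lie farther upstream than this window.

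**Figure D1:**
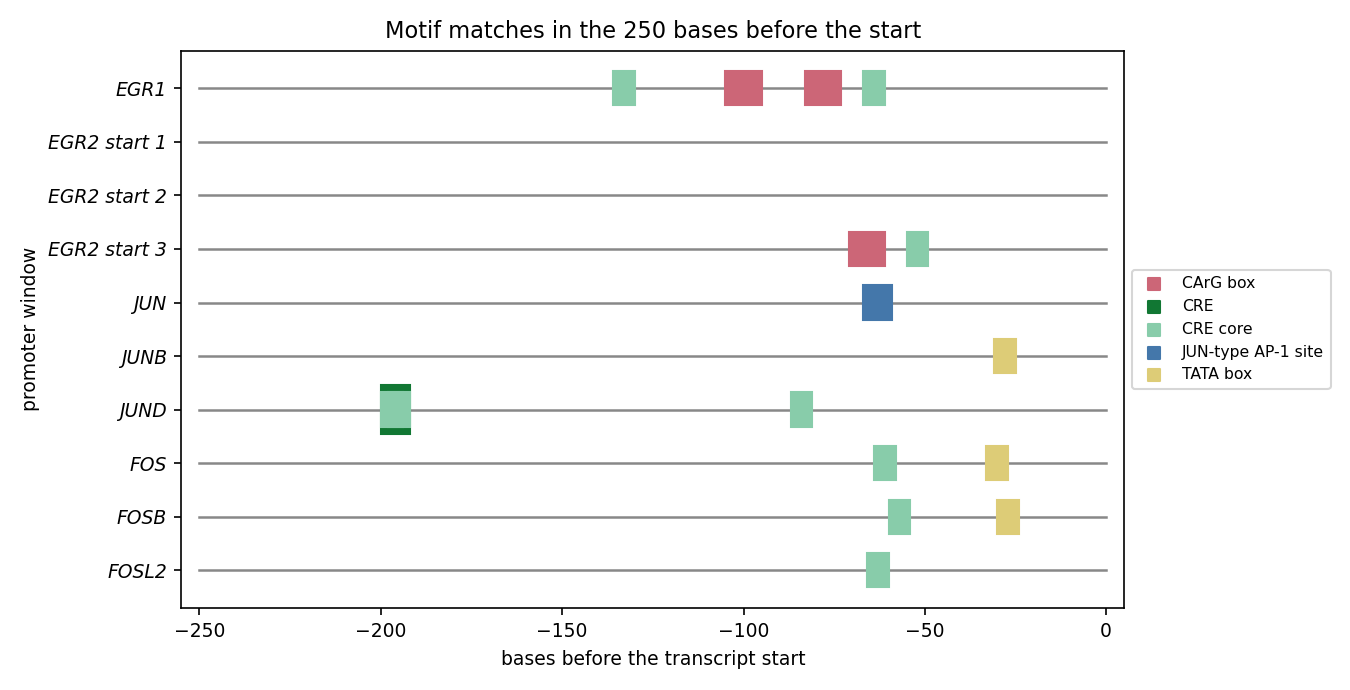
Motif matches (coloured boxes) in the 250 bases before each transcript start of the members with a RefSeq window; the x axis gives bases before the start, and EGR2 has 3 starts. EGR1 carries 2 CArG boxes, while a CRE core begins 60 to 67 bases before the start in EGR1, FOS, FOSB and FOSL2.

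Library totals ran from 16971454 to 18005318 estimated counts. CRIP1 itself stood at 2791 to 3327 TPM (a transcript level scaled for gene length and library depth) in scramble and at 127 to 134 TPM after knockdown, which checks the labels. The quasi-likelihood test of edgeR was run on 12612 genes, and 77.6% of them passed an adjusted p of 0.05, 39.4% higher and 38.1% lower. Of the changed genes 50.8% were higher, and the median log2 fold change of all genes was 0.01. On log2(TPM + 1) the share was 61.4% and the median 0.12. With a GC trend removed the share was 43.1% and the median -0.08. The libraries also differed in markers of other cell types. Of 13 tested erythroid markers 12 were higher after knockdown, and the 15 listed summed to 753 to 762 TPM against 3.86 to 5.66 TPM in scramble, where 13 of them, all globins and GATA1 included, had 0 counts. Epithelial markers summed to 93.2 to 102 against 23.6 to 26.8 TPM (5 higher and 1 lower of 9 tested), and myeloid markers to 7.18 to 7.84 against 0.94 to 1.27 TPM (2 higher of 3). Fibroblast and endothelial markers summed to 6.15 to 6.9 against 8.42 to 9.19 TPM (1 higher and 3 lower of 4), and T and NK cell markers, none of them tested, to 1.7 to 2.32 against 0.36 to 0.71 TPM. Plasma cell markers were present in each library, with 3 higher (TNFRSF17, IRF4 and CD38) and 6 lower of 9 tested. They summed to 8550 to 9010 TPM in scramble and 3930 to 4190 TPM after knockdown. Most of that difference was JCHAIN, at a mean of 6443 TPM in scramble and 1789 TPM after knockdown. SLAMF7, CD27 and CD79A, also plasma cell markers, had 20 counts or fewer in each group. These marker levels moved with every change described below, and their part in those changes was not tested. In bulk RNA, fewer cells of a type and less RNA per cell cannot be told apart.

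Among the 10 factors, EGR1 was nearly silent in scramble and clearly expressed after knockdown. FOS rose 4.63-fold and JUN 2.43-fold, and JUNB and FOSL2 were slightly lower. Of the 8 members tested, 6 were called higher (against 39.4% of all tested genes) and 2 lower (against 38.1%). At 2-fold or more 5 were higher, where 10.0% of all tested genes were, and 0 were lower, where 8.06% were. The TPM of the groups did not overlap for 6 of the 8, each with knockdown above scramble (48.2% of all tested genes), and for 0 with knockdown below (30.3%). EGR1, FOSB and FOSL1 passed the filter on low counts only through the knockdown libraries, so they had to be higher to be counted. The 5 members with at least 10 counts in every library, JUN, JUNB, JUND, FOS and FOSL2, comprised 3 called higher and 2 called lower, and of these 5 JUN and FOS were at least 2-fold higher. EGR2 and EGR3 did not pass the filter. The members were chosen with earlier results of these data known, so these counts are a description and not a test of the set.

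EGR1, the founding member of its family and a sensor of growth factor and stress signals, lies on chromosome 5 (138465490 to 138469315, GRCh38 as annotated by GENCODE 29). It had 10, 6 and 4 counts in scramble replicates 1 to 3 and 470, 517 and 463 counts in knockdown replicates 1 to 3. Its level was 0.35, 0.21 and 0.14 TPM in scramble and 16.6, 17.72 and 16.62 TPM after knockdown. The groups did not overlap, as was so for 78.5% of all tested genes, and the knockdown libraries were close to each other. In scramble 30.1% of the table's genes had a lower TPM than EGR1, and after knockdown 62.9% had. Knockdown was 64.9-fold above scramble in the fit, a log2 fold change of 6.02 (SE 0.16, edgeR adjusted p = 1.28e-17). Permuting the 6 TPM values exactly (two-sided) gave p = 0.1, which is the lowest possible with 3 against 3, here and for JUN, JUND, FOS, FOSB and FOSL1. Ordered from the highest log2 fold change to the lowest, EGR1 ranked 154 of 12612 genes. On log2(TPM + 1) the difference was 3.87, since adding 1 shrinks the folds of low genes. CArG boxes were matched in its window, shown above, and in a window of EGR2, which remained near 0.

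Its relatives EGR2, known for myelin and lymphocyte programmes, and EGR3, induced with EGR1 in activated lymphocytes, remained at the edge of detection. EGR2 had 0 counts in each scramble library and 1, 1 and 2 counts in the knockdown libraries. EGR3 had 0, 0 and 2 counts in scramble and 1, 4 and 0 after knockdown, a ratio of 2.42 with an exact 95% binomial interval of 0.397 to 25.5. A difference in either was not detectable at this depth. EGR1 therefore held 99.2% to 99.6% of the summed EGR family TPM in the knockdown libraries. In scramble replicates 1 to 3 it held 100%, 100% and 70%, of sums of only 0.35, 0.21 and 0.2 TPM. Intervals and floors of this kind cover counting error only.

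JUN, the founding AP-1 subunit, lies on chromosome 1 (58780788 to 58784327). Scramble libraries had 28.76, 30.38 and 30.04 TPM, and knockdown libraries had 73.04, 84.25 and 81.13 TPM. The lowest knockdown library stood well above the highest scramble library. Means were 29.7 ± 0.854 and 79.5 ± 5.79 TPM (SD, n = 3 each), and the fitted difference was 2.43-fold (log2 fold change 1.28, SE 0.05, adjusted p = 1.08e-14, edgeR). This value moved little, between 1.23 and 1.39, over the 16 other ways of fitting.

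JUNB, which can restrain JUN activity, was the most abundant member in scramble. The gene (chromosome 19, 12791496 to 12793315) stood at 77.68, 75.3 and 79.14 TPM in scramble and at 69.03, 76.26 and 73.71 TPM after knockdown. The groups overlapped, with knockdown replicate 2 above scramble replicate 2. On counts it fell by 0.22 on the log2 scale (SE 0.05, 95% interval -0.32 to -0.12, adjusted p = 0.000399, edgeR). On log2(TPM + 1) the value was -0.084 and missed the threshold (adjusted p = 0.111, limma). The median of all genes was 0.12 on that scale, rather than 0.01.

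JUND, a constitutively expressed subunit linked to slower proliferation, lies on the same chromosome (18279760 to 18281622). Its TPM was 50.54, 47.63 and 48.47 in scramble and 56.89, 69.76 and 65.68 after knockdown, with no overlap and a wide spread in the knockdown group. The fitted rise was 0.26 on the log2 scale (SE 0.06, adjusted p = 0.00119, edgeR). With the GC trend removed the value was 0.083 and missed the threshold (edgeR adjusted p = 0.12). The median of all genes was -0.08 in that fit, rather than 0.01. The longest JUND transcript has a GC content of 69.7%, the highest of the 10 members.

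FOS, the partner that gives AP-1 its transient burst, lies on chromosome 14 (75278774 to 75282230). It had 17, 15 and 14 counts in scramble and 84, 79 and 72 counts after knockdown, or 0.93, 0.81 and 0.78 TPM against 4.65, 4.23 and 4.05 TPM. Each knockdown library was above each scramble library. The difference was 4.63-fold (log2 fold change 2.21, SE 0.19, adjusted p = 1.77e-09, edgeR). Even after this rise FOS stood far below JUN per unit of length, with JUN over FOS at 15.7 to 20 in the knockdown libraries and at 30.9 to 38.5 in scramble.

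FOSB, a close relative of FOS, and FOSL1 (FRA-1), a more stable subunit lacking the strong transactivation domain of FOS, rose from very low levels. FOSB (chromosome 19, 45467995 to 45475179) went from 9, 6 and 9 counts to 18, 22 and 16 counts, or from 0.237 ± 0.0493 to 0.543 ± 0.0777 TPM (SD, n = 3 each). Its log2 fold change was 1.08 (SE 0.33, adjusted p = 0.00519, edgeR). FOSL1 (chromosome 11, 65892049 to 65900573) had 2, 1 and 0 counts in scramble and 13, 15 and 15 counts after knockdown. Over the groups this is a ratio of 13.9, with an exact 95% binomial interval of 4.45 to 70.0. The fitted log2 fold change of FOSL1 was 3.56 (SE 0.58, adjusted p = 1.26e-05, edgeR), 4.41 without scramble replicate 1 and 3.03 without scramble replicate 3. The knockdown libraries held 0.92, 1.03 and 1.13 TPM of FOSL1. For both genes the groups did not overlap, but the levels remained near 1 TPM or below.

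FOSL2 (FRA-2), the FOS family member best expressed in scramble, fell slightly. The gene (chromosome 2, 28392448 to 28417312) had 1.76, 1.64 and 1.88 TPM in scramble and 1.35, 1.72 and 1.54 TPM after knockdown, so the groups overlapped. The fitted value fell by 0.33 on the log2 scale (SE 0.12, 95% interval -0.58 to -0.07, adjusted p = 0.019, edgeR). The call was not made without scramble replicate 3 (adjusted p = 0.0717), without knockdown replicate 1 (0.0995), by DESeq2 (0.0817) or on log2(TPM + 1) (0.236). On that last scale the median of all genes was 0.12. The start of an antisense gene, FOSL2-AS1, lies within FOSL2, and no strand setting is stated for the counts.

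**Figure D2:**
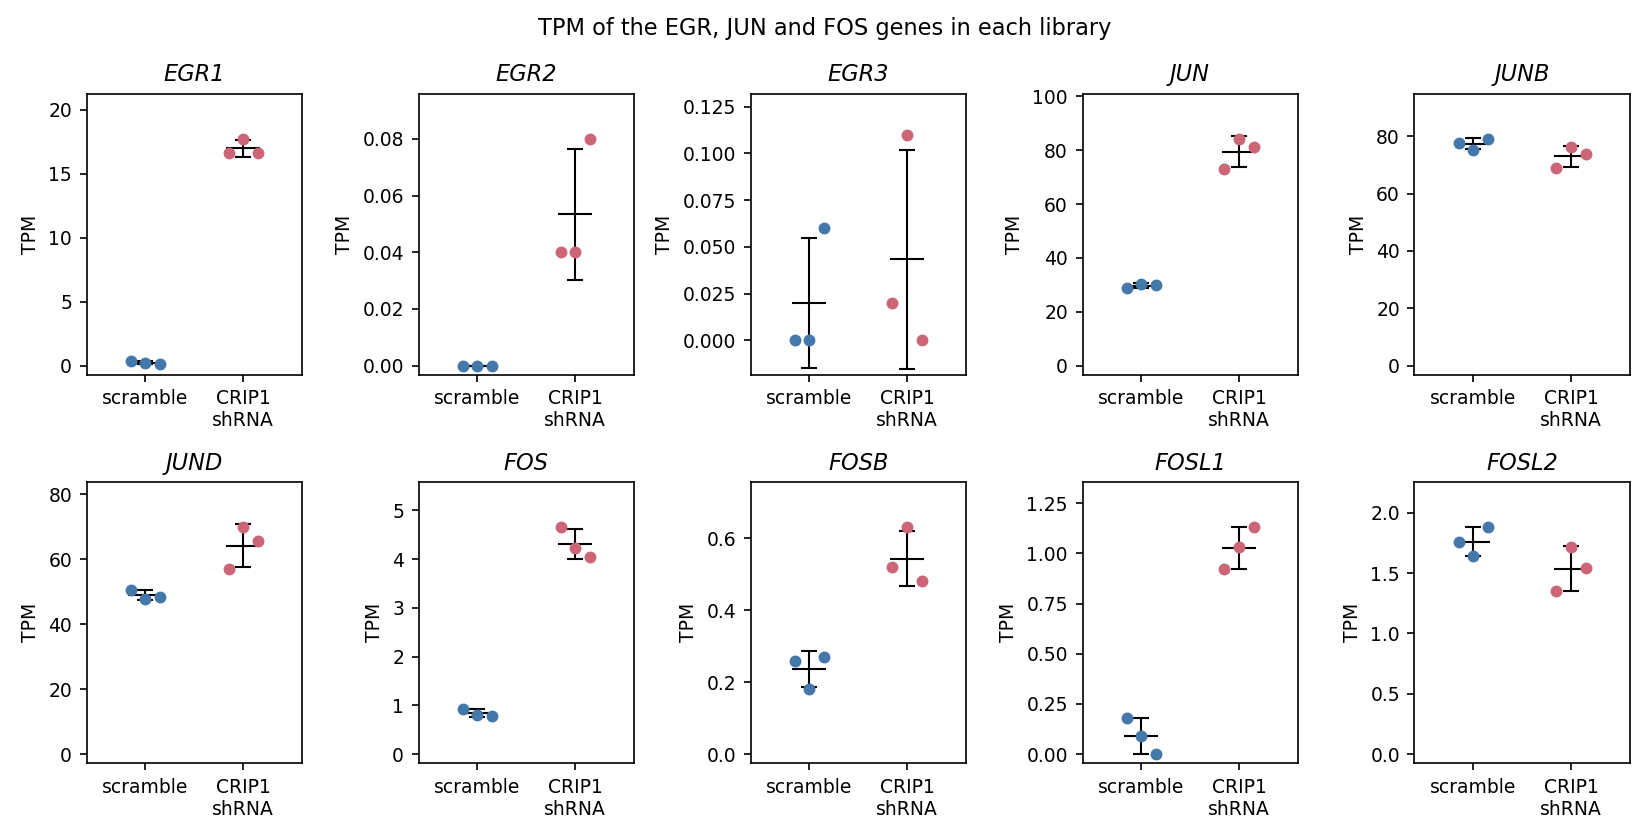
TPM of each of the 10 members in the 3 scramble (blue) and 3 CRIP1 shRNA (red) libraries; each panel has its own linear axis, horizontal lines are means and bars are SDs. EGR1, JUN, JUND, FOS, FOSB and FOSL1 show no overlap between groups, JUNB and FOSL2 overlap, and EGR2 and EGR3 stay near 0.

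**Figure D3:**
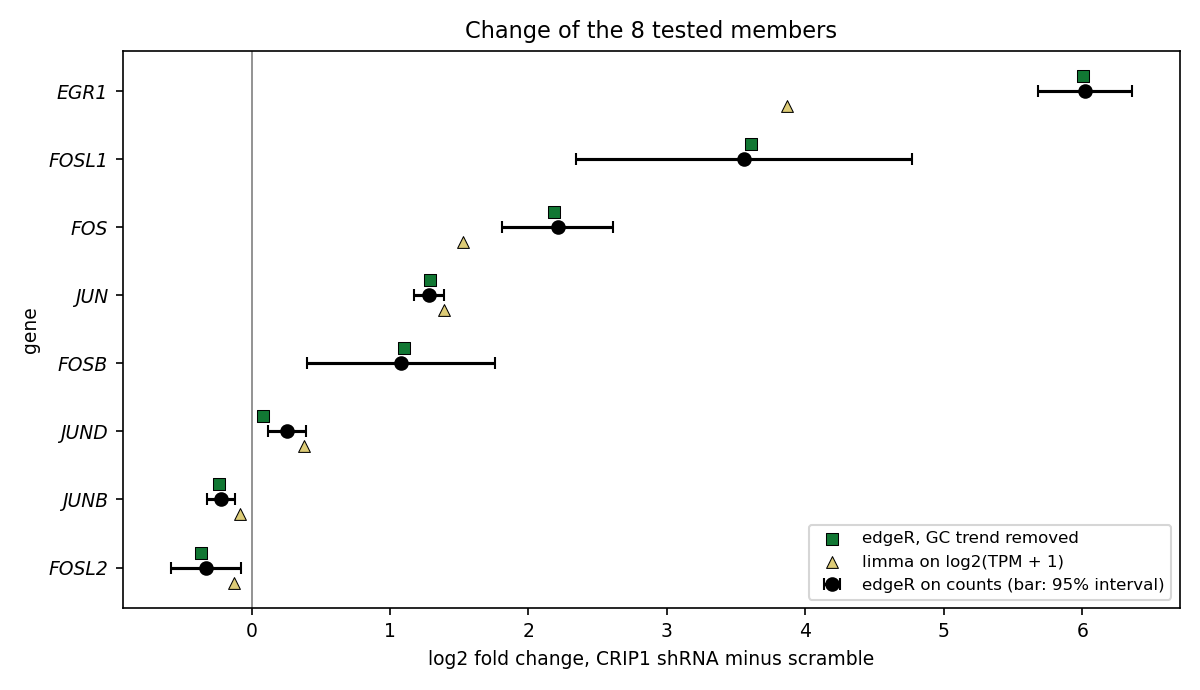
Log2 fold change (CRIP1 shRNA minus scramble) of the 8 tested members by edgeR with 95% intervals, by edgeR with the GC trend removed, and by limma on log2(TPM + 1) for the genes with at least 1 TPM in 3 libraries. EGR1 lies at 6.02 and FOSL2 at -0.33, and the value of JUND moves from 0.26 to 0.083 with the GC trend removed.

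The make-up of both AP-1 families differed between the groups, as shares within each library, which do not depend on library scaling. JUNB made up 49.6% ± 0.551 of the summed JUN family TPM in scramble and 33.7% ± 0.836 after knockdown (SD, n = 3 each). JUN went from 19.1% ± 0.748 to 36.7% ± 0.102, while JUND was at 31.3% ± 0.761 and 29.6% ± 0.873. The ratio of JUN to JUNB was 0.37, 0.403 and 0.38 in scramble and 1.06, 1.1 and 1.1 after knockdown, so the order of these genes was turned in each library. In the FOS family, FOSL2 held 60.2% ± 3.97 in scramble and 20.7% ± 2.30 after knockdown, and FOS went from 28.7% ± 1.80 to 58.1% ± 3.82. The exact permutation test gave p = 0.1 for the ratios of JUN to JUNB and of FOS to FOSL2, as low as this design allows. Summed TPM of the JUN family was 156 ± 2.34 and 216.6 ± 16, and that of the FOS family was 2.93 ± 0.205 and 7.42 ± 0.206 (SD, n = 3), so JUN proteins' transcripts outnumbered those of their FOS partners in both groups.

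**Figure D4:**
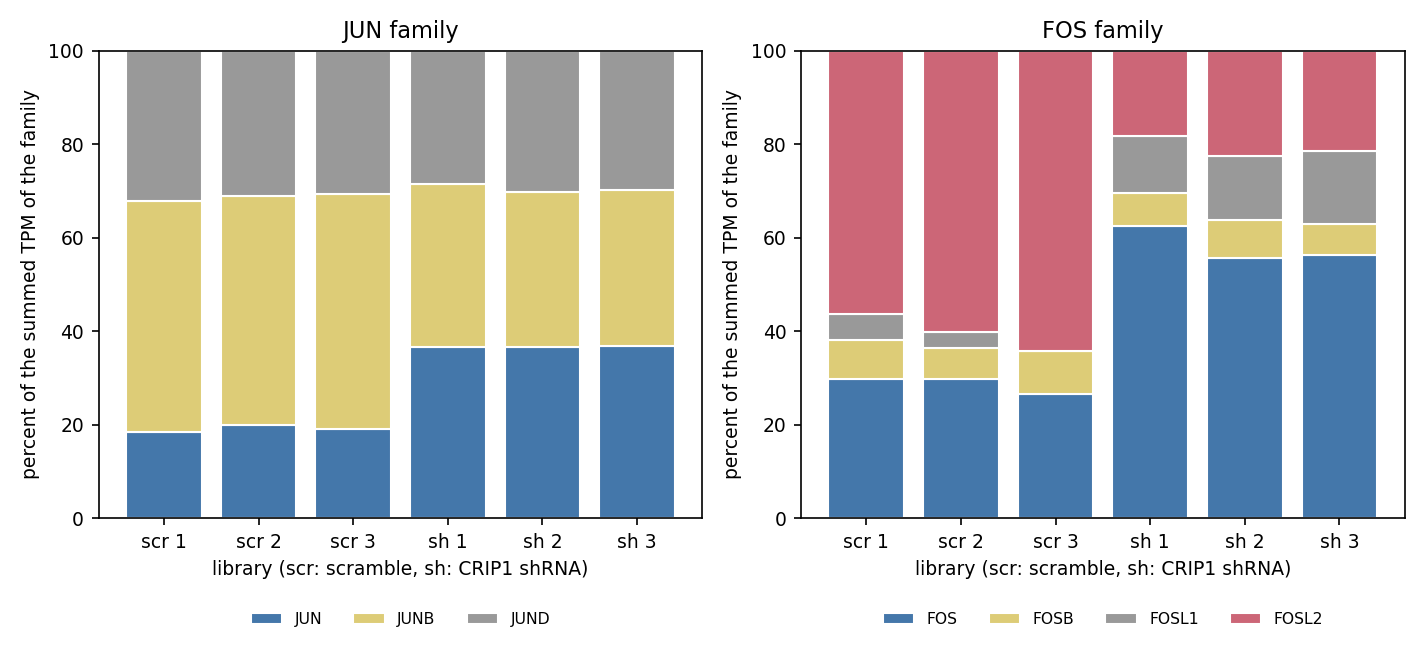
Share of the summed TPM of the JUN family (left) and the FOS family (right) held by each member in each library, in percent, with scramble libraries (scr) first. JUN holds a mean of 19.1% of its family in scramble and 36.7% after knockdown, and FOS 28.7% and 58.1% of its own, with no overlap between groups.

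Of 2 tested genes of this list, NAB1, a co-repressor of EGR proteins, rose by 0.28 (log2, SE 0.05, adjusted p = 7.79e-05, edgeR), a call lost with the GC trend removed. NAB2, a co-repressor that EGR1 is known to induce, was at 9.30 TPM in scramble and 9.15 TPM after knockdown (log2 fold change -0.14, 95% interval -0.32 to 0.04, adjusted p = 0.156, edgeR). EGR4 had 0 counts in scramble and 1 count after knockdown.

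Other bZIP factors that can pair with JUN or FOS went both ways. Of 14 tested, 4 rose and 6 fell, against 39.4% and 38.1% of all tested genes. The median log2 fold change was 0.01, the same as that of all tested genes. ATF3, a stress-induced repressor that pairs with JUN, rose from 76.2 ± 3.01 to 128 ± 1.17 TPM (SD, n = 3), and CREB5 rose from 0.06 to 0.393 TPM. CREB5 passed the filter on low counts only through the knockdown libraries. ATF2, the partner at the JUN promoter, fell by 0.70 on the log2 scale (SE 0.05). BATF, a lymphoid AP-1 factor, fell from 17.4 ± 1.68 to 8.57 ± 0.966 TPM (SD, n = 3), and MAFK, a small MAF protein, fell by 0.57 (SE 0.07). MAF, which a translocation activates in KMS11 and which was chosen after its value was seen, stood at 137 and 165 TPM (log2 fold change 0.15, SE 0.03).

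Transcription factors that drive FOS and EGR1 went both ways. Of 12 tested genes of serum response and CREB signalling, 2 rose and 7 fell, with a median of -0.17, beside 39.4% higher and 38.1% lower among all tested genes. On log2(TPM + 1), where the median of all genes was higher as given above, 4 were higher and 2 lower, and with the GC trend removed 1 higher and 8 lower. SRF, which binds the CArG box, fell by 0.56 on the log2 scale (SE 0.05), and its level was 24.0 ± 0.693 and 18.0 ± 0.921 TPM (SD, n = 3). ELK3, an SRF partner that can repress, fell by 0.58 (SE 0.05), and the actin-regulated cofactor MRTFB by 0.27 (SE 0.05). CREM, a CREB relative with repressor and activator forms, rose by 1.04 on the log2 scale (SE 0.07), from 22.9 ± 2.83 to 51.7 ± 2.09 TPM (SD, n = 3).

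Kinases of the MAP kinase cascades, which phosphorylate these factors, were lower in 12 and higher in 4 of 22 tested genes, with a median of -0.22. On log2(TPM + 1) 7 were higher and 10 lower, and with the GC trend removed 4 and 15. The medians of all genes in those fits were 0.12 and -0.08. Among all tested genes 38.1% were lower and 39.4% higher in the main fit, with a median of 0.01. MAPK10, 1 of the lower genes, passed the filter on low counts only through the scramble libraries. MAP2K6, an activator of p38, fell from 1.84 to 0.31 TPM, and the ERK-activated kinases RPS6KA1 and RPS6KA3 fell by 1.35 (SE 0.07) and 0.80 (SE 0.04) on the log2 scale. Their relative RPS6KA2, chosen after its value was seen, rose by 0.96 (SE 0.06), and RPS6KA4 and RPS6KA5 were not called. MAPK8 (JNK1), a JUN kinase chosen after its value was seen, had a log2 fold change of 0.11 (adjusted p = 0.0565, edgeR). Transcript levels say nothing of the activity of these kinases.

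Other immediate early genes went both ways. Of 31 tested, 17 rose and 9 fell, against 39.4% and 38.1% of all tested genes. Their median was 0.19, against 0.01 for all tested genes. The stress phosphatase subunit PPP1R15A rose from 98.7 ± 5.05 to 302.4 ± 19.4 TPM and the zinc finger factor KLF6 from 35.3 ± 0.344 to 77.3 ± 2.59 TPM (SD, n = 3 each). CCN1, a matricellular growth signal, had 0 counts in scramble and 49 after knockdown, at least 15.8-fold higher when the scramble group is set to a floor of 3 counts. It passed the filter on low counts only through the knockdown libraries, so it had to be higher to be counted. In the other direction, the antiproliferative gene BTG2 fell from 339 ± 1.31 to 173 ± 7.39 TPM and the kinase SGK1 from 98.8 ± 4.35 to 33.8 ± 1.18 TPM (SD, n = 3 each). Chosen after their values were seen, KLF2 (log2 fold change 2.13, SE 0.19) and RHOB (1.32, SE 0.06) were higher, while ZFP36 (-1.35, SE 0.09), which degrades short-lived mRNAs, and DUSP6 (-1.12, SE 0.07), a brake on ERK, were lower.

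**Figure D5:**
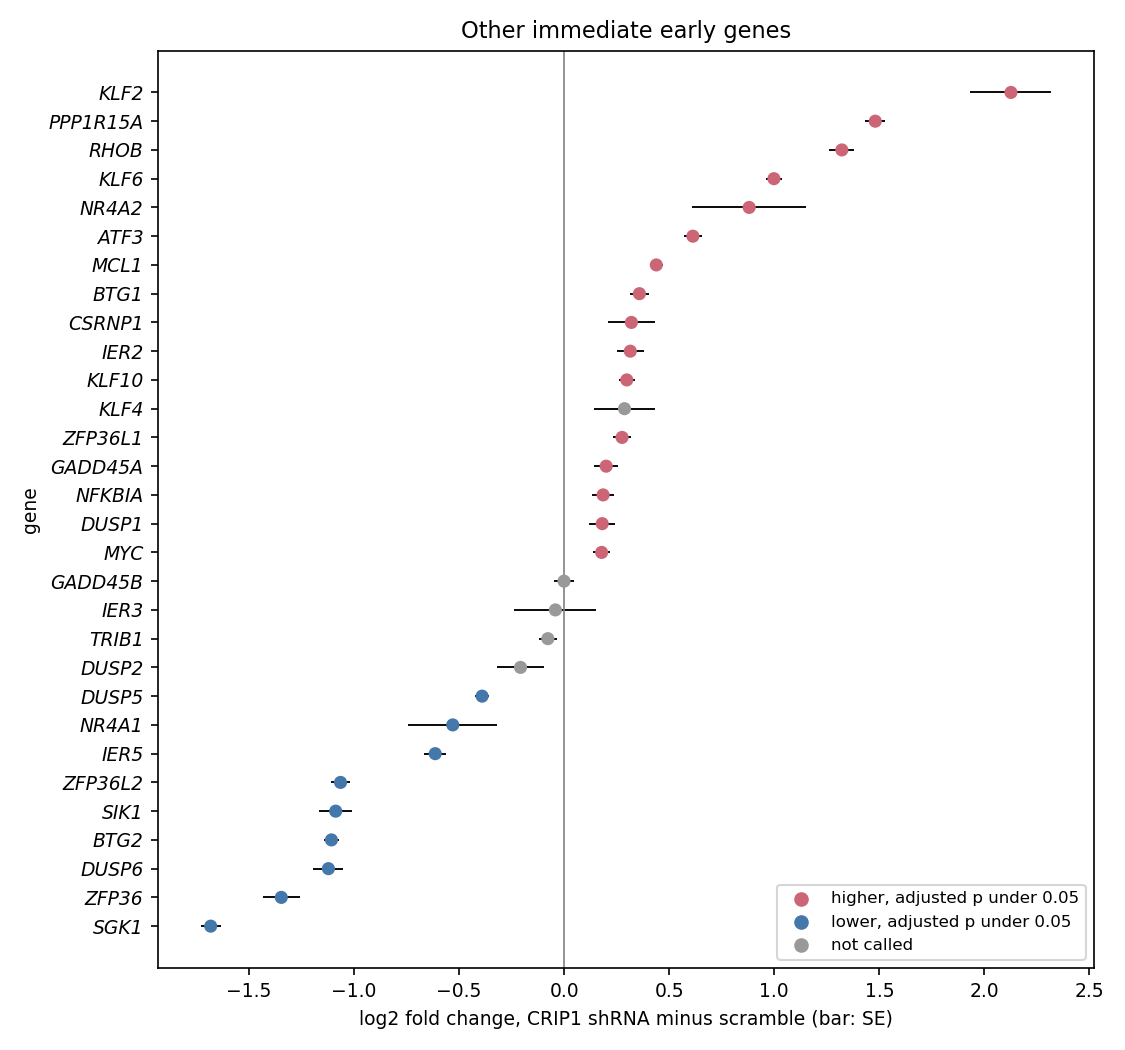
Log2 fold change with SE of the other immediate early genes tested, coloured by direction and call; CCN1, with 0 scramble counts, is not drawn. Genes lie on both sides of 0, from SGK1 at -1.68 to KLF2 at 2.13.

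Genes that control turnover of JUN and FOS proteins included 1 higher and 3 lower of 9 tested (all tested genes: 39.4% and 38.1%). Their median was 0.00. On log2(TPM + 1) 4 were higher and 3 lower, and with the GC trend removed 1 and 7. The medians of all genes in those fits were 0.12 and -0.08. DDB1, the adaptor of cullin 4 ligases, fell by 1.43 on the log2 scale (SE 0.04), with 246 ± 7.82 TPM in scramble and 100.3 ± 2.27 TPM after knockdown (SD, n = 3). FBXW7 and COP1, receptors of ligases that degrade JUN, fell by 0.29 (SE 0.07) and 0.27 (SE 0.04), and DET1, the COP1 partner, rose by 0.92 (SE 0.11). Heat shock genes, which encode chaperones, had 4 higher and 3 lower of 8 tested, beside the same shares of all tested genes. HSPA1A rose from 4.31 to 18.6 TPM and DNAJB1 from 47.1 to 97.8 TPM, whereas HSP90AA1 and HSPH1 fell by 0.95 (SE 0.03) and 0.88 (SE 0.04) on the log2 scale. HSPA1A has a near-identical copy, HSPA1B, so its reads may be split between them.

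Textbook targets of AP-1 changed in both directions. Of 14 listed, 8 were tested, of which 5 rose and 2 fell, against 39.4% and 38.1% of all tested genes. The counts were 2 and 2 on log2(TPM + 1), where low genes drop out. TIMP1, PLAU, CCND1 and CD44 passed the filter on low counts only through the knockdown libraries, so they had to be higher to be counted. MMP9 likewise passed only through the scramble libraries. The protease inhibitor TIMP1 had 2 counts over the scramble libraries and 279 over the knockdown libraries, and stood at 18.2 ± 0.873 TPM after knockdown (SD, n = 3). The urokinase gene PLAU had 3 and 63 counts. MMP9, a matrix protease, fell from 5.49 ± 0.275 to 0.323 ± 0.219 TPM (SD, n = 3), and the chromatin protein HMGA1 fell by 0.49 on the log2 scale (SE 0.05). The AP-1 targets MMP1, MMP3, MMP10 and CXCL8 had 0 scramble counts and 2 or fewer knockdown counts.

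Textbook targets of EGR1 had 3 higher and 2 lower of 7 tested (all tested genes: 39.4% and 38.1%), with a median of -0.06. The stress cytokine GDF15 rose from 0.58 ± 0.266 to 33.1 ± 3.01 TPM (SD, n = 3), and the adhesion receptor ICAM1 rose by 0.48 on the log2 scale (SE 0.04). GDF15 passed the filter on low counts only through the knockdown libraries, so it had to be higher to be counted. TGFB1 fell from 119 ± 2.82 to 61.6 ± 4.49 TPM (SD, n = 3). ATF3, given above, is also on this list. PDGFA, below the filter and chosen after its value was seen, had 0 scramble and 26 knockdown counts, at least 8.4-fold higher against the same floor.

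Promoter letters and calls were set side by side as a description. Of 154 tested genes with a CArG box in a window, 42.9% rose and 42.9% fell, against 39.5% and 38.1% of the 10383 tested genes with any window. Of 406 genes with TGACTCA, 38.4% rose and 38.7% fell, with a median log2 fold change of 0.00 against 0.01 with any window. The share at least 2-fold higher was 15% with TGACTCA, 14.8% with the JUN-type site, 13.7% with the TATA box, 11.7% with a CArG box, 9.82% with an EGR site, 7.73% with a CRE core and 5.93% with the full CRE, against 9.77% of genes with any window. Of 1181 genes with an EGR site, 35.6% rose and 43% fell. EGR1 itself is among the genes with a CArG box, and genes can hold several motifs. Shares at least 2-fold lower were not counted per motif. Genes that passed the filter on low counts only through the knockdown libraries could add to the 2-fold higher shares.

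By likeness of pattern, the genes closest to EGR1 over the 6 libraries were FCGR2A, ANGPT1, QPRT, MAGEB2 and IFITM3. Likeness was the Euclidean distance between log2 CPM values (counts scaled to library size) centred on each gene. A prior count of 2, which damps low counts, was used for log2 CPM. The 11880 genes compared had a mean of at least 1 CPM, and the distances ran from 0.345 for FCGR2A to 0.727 for IFITM3. Each of the 5 had 3 or fewer counts over the scramble libraries. FCGR2A, an immunoglobulin receptor of myeloid cells and platelets, had 1 scramble and 387 knockdown counts. ANGPT1, a vascular growth factor, had 1 and 322, and the interferon-induced membrane protein IFITM3 had 3 and 495. With 2 groups this distance mostly reflects the size of the step between them after the prior count, which limits the step of genes with few scramble counts. In the fit the log2 fold changes of the 5 ran from 6.91 for QPRT to 9.76 for MAGEB2, against 6.02 for EGR1.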

How the data were processed

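Total RNA of KMS11 cells was sequenced with a SMARTer mRNA kit, per the labels' protocols, and the titles gave each library's group and replicate. The deposited table holds, per the file headers, an estimated count, an FPKM value (a level scaled for length and depth) and a TPM value for each gene and library. RSEM 1.2.8, HISAT2 2.1.0, Bowtie2 2.2.5 and the build GRCh38.p13 are listed, without roles, in the submitters' processing notes, and the annotation and strand setting are not given in the sources used here. The authors' estimated counts need not be whole, and FPKM and TPM were used as deposited by the authors.

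Whole-number roundings of the estimated counts went into edgeR 4.0.16 (R 4.3.3): filterByExpr by group (minimum count 10), TMM scaling, quasi-likelihood test on group, Benjamini-Hochberg adjustment over 12612 genes, threshold 0.05. The SE is the log2 fold change over the square root of F. Changes are knockdown minus scramble. Tested on simulated data for this comparison (12447 genes), the fit called 44 of the 67 genes given a 1.25-fold change, 52 of the 64 given 1.5-fold and 62 of the 66 given 2-fold, and 5 genes falsely. Only the 67, 64 and 66 genes were given a change there, whereas 77.6% of tested genes were called in the deposited counts. How the fit performs with so many changes, or with larger ones, was not tested. Replicates were not repeat deposits: their mean chi-square per gene was 1.62 to 4.15, above sampling noise.

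The members and the 16 gene lists were chosen with earlier results of these data known. Lists are described by counts and medians. The 13 mitochondrial transcripts of 1 list were not matched. Named genes were the members, for each list the 4 of smallest adjusted p and the largest called fold, and the 5 genes nearest EGR1, of which 1 list gene is not reported here. Marker genes are given as sums, with some also named. Promoter windows came from RefSeq and positions and GC content from GENCODE 29. Alternatives were the replicate block, DESeq2 1.42.0 size factors and Wald test, upper-quartile scaling, no filter or at least 50 counts in 3 libraries, limma 3.58.1 on log2(FPKM + 1) and log2(TPM + 1) with at least 1 in 3 libraries, a per-library loess offset on GC (span 0.5), which also recentres each library, a prior count of 0.5, and each library left out.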

Additional observations from a re-analysis of the deposited data

How the results depend on the processing

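Of 121 values of the 8 tested members over 16 alternatives, 115 kept direction and side of the threshold. Another 6 missed the threshold and 0 turned sign. The stricter filters gave no value for FOSB and FOSL1, and log2(FPKM + 1) gave none for FOSL2. JUNB was -0.084 on log2(TPM + 1), JUND 0.083 with the GC trend removed, and FOSL2 -0.33 by the DESeq2 Wald test and -0.12 on log2(TPM + 1). Leaving out 1 library, FOSL2 ran from -0.43 to -0.24. Members called lower numbered 2 in the full comparison and 1 to 2 with 1 library left out. They numbered 1 by the DESeq2 Wald test, 0 on log2(TPM + 1) and 1 on log2(FPKM + 1), where FOSL2 was not tested. EGR1 ran from 3.22 on log2(FPKM + 1) to 6.43 without scramble replicate 1, and FOS from 1.2 on log2(FPKM + 1) to 2.29 without scramble replicate 1; adding 1 shrinks the folds of low genes by construction. For JUNB, JUND and FOSL2 the cause was not tested. In the lists, EGR cofactors had 0 higher with the GC trend removed. Serum response and CREB factors had 4 higher and 2 lower on log2(TPM + 1) and 1 higher with the GC trend removed. MAP kinases had 7 higher and textbook AP-1 targets 2 higher on log2(TPM + 1), and textbook EGR1 targets 1 lower. The JUN and FOS turnover list had 4 higher on log2(TPM + 1) and 7 lower with the GC trend removed. With the replicate number as a block, 9816 genes were called against 9783, and no call of a member changed. Same-numbered libraries showed little shared deviation (r of 0.05, -0.01 and -0.01 across genes). Of the 3 pairs of numbers only number 1 correlated best with itself. Counting noise can lower such correlations, so they cannot exclude that same-numbered libraries were prepared together. At this depth EGR2 and EGR3 could not be compared.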
